A study of Eonycteris spelaea and Mus musculus with 51 samples.

Results

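Mitochondrial ribosomal protein genes are nuclear genes whose products are imported into the mitochondrion and built into its own ribosome. They were taken from the mouse count table by symbol, as every row named Mrpl or Mrps followed by a number and at most 1 letter. This gave 78 of 40840 rows. By textbook assignment 51 of them encode proteins of the large subunit and 26 proteins of the small subunit, and 45 of these 77 have a bacterial counterpart while 32 occur only in mitochondrial ribosomes. The last, Mrps36, keeps a ribosomal symbol, but its product is now known as a component of the 2-oxoglutarate dehydrogenase complex. Mrps30 and Mrps18a are named for the small subunit, and their products sit in the large one.

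The mitochondrial ribosome reads only the few messages encoded in mitochondrial DNA, which are membrane subunits of the respiratory chain and of ATP synthase, while its 2 ribosomal RNAs are mitochondrial transcripts. Its protein subunits, assembly factors and translation factors therefore have to be supplied from nuclear genes in step with the mitochondrial genome. Skeletal muscle is rich in mitochondria, mature mouse red cells have lost theirs, and lung holds many cell types with differing content.

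The series exposed living mice to heat and sequenced RNA from lung, muscle and blood. Control mice were sampled at baseline, heat mice straight after 1 h of heat, and recovery mice after that 1 h of heat and 4 h of recovery. Lung and muscle had 3 libraries per condition and blood 2, numbered 1 and 3 in the control group and 1 and 2 in the others, which makes 24 mouse libraries among 51 in the series. All carried no genetic change or drug that the labels name, and strain, sex and age are not given in the sources used here. The labels do not say whether libraries came from separate animals, so p-values measure the spread between these libraries, which may be technical.

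Libraries held between 17092519 and 54493918 counted reads. The 78 genes together took 0.0904% to 0.102% of counts in lung, 0.134% to 0.154% in muscle and 0.0188% to 0.0407% in blood. The least counted of the 78 had 38 reads in lung, 91 in muscle and 19 in blood, so all 78 passed the filter on low counts in every fit. A panel of 7 heat shock genes summed to 508.9 to 630.7 CPM (counts in each 1000000 of the scaled library) in control lung and 1874 to 21370 in heated lung, to 205.4 to 252.1 and 2384 to 9426 in muscle, and to 78.25 to 91.34 and 562.9 to 1766 in blood. Muscle fibre markers that were tested summed to at least 56570 CPM in muscle, to 34.18 to 461.1 in lung and to at most 5.94 in blood. Lung epithelial markers that were tested summed to at least 15970 CPM in lung and to at most 8.82 elsewhere.

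Several of the 78 genes share sequence with other genes, and the strand and multi-mapping settings of the counting are not given in the sources used here. In the GENCODE M21 annotation (GRCm38) 33 members share exon bases with another gene, 23 of them with a protein-coding gene and 4 of those on the same strand. A stretch of at least 200 bases with 97% identity or more was found in another annotated transcript for 15 members. Their counts are uncertain because of this near copy: Mrpl21, Mrpl22, Mrpl23, Mrpl27, Mrpl41, Mrpl48, Mrpl51, Mrps5, Mrps10, Mrps18b, Mrps21, Mrps25, Mrps26, Mrps33 and Mrps36. The overlap that bears most on the results below is that of Mrps6, a small-subunit protein with a bacterial counterpart, with Slc5a3, the sodium/myo-inositol cotransporter that brings the osmolyte inositol into cells. The 2 genes share 159 exon bases on the same strand in 1 piece, including 45 of the 375 coding bases of Mrps6. Another annotated protein-coding gene on that strand, Gm49711, shares 305 exon bases with Mrps6 and was not tested here. The first 30 shared coding bases, at chr16:92058436-92058465 on the plus strand of GRCm38, are shown because a read from them could be assigned to either gene; capitals mark the start codon.
Mrps6 and Slc5a3, shared start: ATGccccgctacgagttggctttgattctg

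At baseline the 78 genes were higher in muscle than in lung almost throughout. A gene is called here when edgeR's quasi-likelihood adjusted p, by the Benjamini-Hochberg method over all tested genes, is under 0.05. On that rule 76 of 78 members rose in control muscle relative to control lung and none fell, where 29.8% of all 21186 tested genes were called higher and 30.4% lower. The members' median difference was 1.54 on the log2 scale, against a median of -0.07 over all tested genes, and single members ranged from 0.15 to 3.36. In all 78 the 3 muscle libraries lay above the 3 lung libraries, as in 32.9% of all tested genes. The median standard error of a member's difference was 0.15.

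Mrpl42, a large-subunit protein found only in mitochondrial ribosomes, had the widest difference. Its level was 3.52, 2.92 and 3.07 CPM in control lung, 34.5, 26.6 and 36.4 CPM in muscle, and 2.77 and 3.26 CPM in blood. Muscle thus stood apart from both other tissues, which overlapped, and the muscle minus lung difference was 3.36 (SE 0.17, edgeR adjusted p = 1.17e-06). Mrpl12 makes the flexible stalk that receives translation factors and also binds mitochondrial RNA polymerase. It measured 7.06, 8.74 and 7.18 CPM in lung and 49.99, 47.7 and 53.6 CPM in muscle, a difference of 2.72 (SE 0.13, edgeR adjusted p = 9.56e-07). Mrpl2, whose protein lies at the heart of the large subunit beside the peptidyl transferase centre, went from 4.95, 4.27 and 5.36 CPM in lung to 25.9, 25.9 and 33.6 CPM in muscle. Mrps28 of the small subunit went from 3.02, 3.38 and 3.18 CPM to 17.0, 17.7 and 27.4 CPM. For both, every muscle library was several times the highest lung library. Mrpl51, a large-subunit protein with a near copy, and Mrpl16, a large-subunit protein with a bacterial counterpart, completed the 6 largest rises with differences of 2.73 and 2.43.

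The other panel members also rose in muscle relative to lung, by smaller amounts. Mrps36 differed by 2.14, Mrps12 of the decoding centre by 1.61, Mrpl41 by 1.52, Mrps30 by 1.51, Mrpl3 by 1.47, Mrps6 by 1.39 and Mrps2 by 1.02 on the log2 scale. Mrpl58, which was recruited to the large subunit from a peptidyl-tRNA hydrolase that frees stalled ribosomes, differed by 0.82 (SE 0.13, edgeR adjusted p = 0.00071). The 3 Mrps18 paralogs, which descend from 1 bacterial protein and occupy different sites, differed by 1.49 (Mrps18a), 1.88 (Mrps18b) and 1.26 (Mrps18c). The exceptions to the call were Mrpl24 and Mrpl52. Mrpl24, a large-subunit protein with a bacterial counterpart, measured 20.1, 19.7 and 18.9 CPM in lung, 21.8, 20.9 and 22.6 CPM in muscle and 25.0 and 25.0 CPM in blood. Muscle thus differed little from lung (muscle minus lung 0.15, SE 0.10, edgeR adjusted p = 0.197), while both blood libraries lay above all lung and muscle libraries. The gene shares 594 of its exon bases with Rrnad1 on the opposite strand. Mrpl52 differed by 0.53 (SE 0.27, edgeR adjusted p = 0.127), with 4.61, 2.53 and 3.85 CPM in lung and 5.39, 5.21 and 5.26 CPM in muscle.

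Both subunits and both evolutionary classes shared the muscle difference. Of large-subunit genes 49 of 51 were called higher, with a median of 1.52, and of small-subunit genes 26 of 26, with a median of 1.55. Genes with a bacterial counterpart (44 of 45 called) and genes specific to mitochondria (31 of 32 called) both had a median of 1.54. In bulk tissue, fewer cells of a type and less RNA per cell cannot be told apart. The comparison rests on trimmed-mean (TMM) scaling: with library totals as the only scaling the median of all genes moved to -1.09 and that of the members to 0.51, 41 members were called higher and 1 lower, and the differences of Mrpl58 (-0.22) and Mrps2 (-0.02) changed sign.

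**Figure D1:**
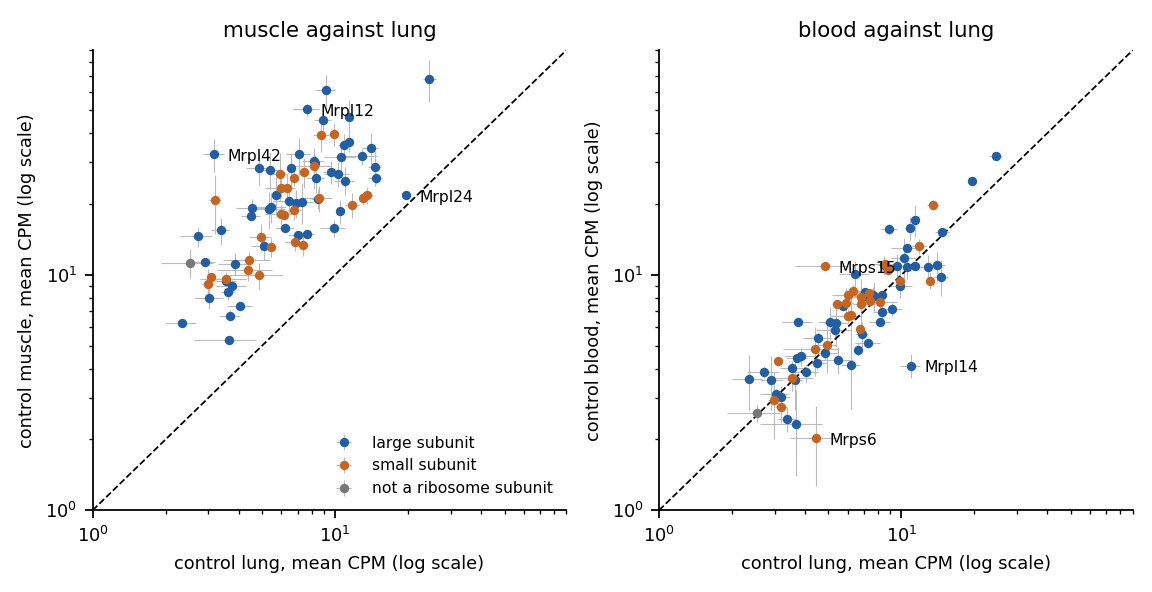
Mean CPM of each of the 78 genes in control muscle (left) and control blood (right) against control lung, on log axes with 1 scaling for all 8 control libraries. Points are means over 3 lung, 3 muscle and 2 blood libraries, bars are SD, colours are subunits and the dashed line marks equal levels. In muscle nearly all points lie above the line and Mrpl24 lies close to it, and the median log2 difference was 1.54; in blood they scatter about it.

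Control blood differed from control lung in both directions. Here 15 members were called higher and 7 lower, where 28.8% and 35.2% of tested genes were, and the members' median was 0.13 against -0.11 over all genes. The balance of directions turned under other settings: 7 were higher and 10 lower with RLE size factors, 7 and 9 with DESeq2, and 7 and 8 without the filter on low counts. Mrps15, a small-subunit protein with a bacterial counterpart, measured 6.22, 4.04 and 4.24 CPM in lung and 11.2 and 10.7 CPM in blood, with no overlap (difference 1.18, edgeR adjusted p = 0.00143). Blood lay above lung without overlap in 37.1% of all tested genes. Mrpl30 measured 8.15, 9.49 and 9.09 CPM in lung and 14.98 and 16.2 CPM in blood (0.81). Mrpl32 (0.75), Mrpl19 (0.65), Mrpl22 (0.63, with a near copy) and Mrpl33 (0.58), all of the large subunit, were the next largest rises. Mrpl14 fell the most: its 10.7, 12.1 and 10.02 CPM in lung stood against 3.77 and 4.47 CPM in blood (-1.40, SE 0.18, edgeR adjusted p = 0.000161). Its protein lies at the face where the subunits join and is the docking site of the ribosome silencing factor. Mrps6 also fell, from 4.29, 5.45 and 3.54 CPM to 2.55 and 1.49 CPM (-1.14, edgeR adjusted p = 0.0074), followed by Mrpl27 (-0.58, near copy), Mrpl4 (-0.57), Mrps17 (-0.47) and Mrpl35 (-0.46). In place of 22 called members there were 11 without blood library 1, 8 without blood 3 (each leaving 1 blood library, assumed to vary like the other groups), 13 without lung 1, 12 without lung 3 and 28 without muscle 3.

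Within the Mrps18 paralogs the blood values went apart. Mrps18b was called higher in blood, with 5.82, 6.47 and 6.71 CPM in lung and 8.21 and 8.89 CPM in blood (0.43, edgeR adjusted p = 0.0406, near copy). Mrps18a measured 6.35, 7.62 and 7.92 CPM in lung and 5.33 and 4.98 CPM in blood, a difference of -0.50 that was not called (edgeR adjusted p = 0.0516). Mrps18c differed by 0.15 with an SE of 0.26. None of the other panel members was called: Mrpl3 differed by 0.38, Mrps2 by 0.24, Mrpl41 by 0.22, Mrps30 by 0.17, Mrpl12 by 0.10, Mrpl58 by 0.04, Mrps36 by 0.03 and Mrps12 by -0.02. These directions depended on the scaling, since with library totals alone all genes moved to a median of -1.71, the members to -1.47, 0 members were called higher and 77 lower, and all rises named here turned to falls. The members' distance from the median of all genes was 0.24 with either scaling. Haemoglobin and other erythroid markers reached 398900 and 570900 CPM on the blood scaling in the 2 control blood libraries; their part in the result was not tested.

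Muscle also exceeded blood, in a comparison that shares its libraries with the 2 above. There 75 members were called higher and 0 lower, against 39.7% and 30.1% of tested genes, with a median of 1.49 (all genes 0.25). Mrpl42 (3.42), Mrpl51 (3.08), Mrps28 (2.91), Mrpl55 (2.66), Mrpl12 (2.62) and Mrpl2 (2.61) led. Of the remaining panel, Mrps6 differed by 2.52, Mrps36 by 2.11, Mrps18a by 1.99, Mrps12 by 1.63, Mrps18b by 1.44, Mrps30 by 1.33, Mrpl41 by 1.31, Mrps18c by 1.11, Mrpl3 by 1.09, and Mrpl58 and Mrps2 by 0.78. The 3 members not called were Mrpl24 (-0.20, edgeR adjusted p = 0.127), Mrps15 (-0.13, edgeR adjusted p = 0.617) and Mrps9 (0.14, edgeR adjusted p = 0.345), the last named after its value was seen. Mrps15 was thus the highest in blood relative to lung of the whole group and level with muscle: 8.88, 9.67 and 11.4 CPM in muscle beside 11.2 and 10.7 CPM in blood.

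Levels of different members can be compared only per length, here as CPM per kilobase of merged exons in GENCODE M21. Exon lengths ran from 607 to 8631 bases. The median member stood at 2.63 CPM per kb in control lung, 7.93 in muscle and 2.85 in blood, and the highest member exceeded the lowest by 16.8, 23.3 and 15.7 times. The highest in lung were Mrpl14 (11.5 ± 1.09 CPM per kb, SD, n = 3), Mrpl24 (8.68 ± 0.26) and Mrpl10 (8.61), which forms the base of the stalk that Mrpl12 joins. The highest in muscle were Mrps21 (36.2 ± 8.26, with a near copy), Mrpl12 (32.9 ± 1.93) and Mrpl34 (31.7 ± 2.94), and in blood Mrpl24 (11.1), Mrps21 (10.3 ± 1.58, n = 2) and Mrpl10 (8.87). Mrpl47 was lowest in lung (0.69 ± 0.09) and blood (0.71), and Mrps35 in muscle (1.56 ± 0.17), where Mrpl32 (1.80) and Mrpl47 (1.81) came next.

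The order of members per kb was much alike in lung and blood and less so in muscle. Spearman's rho over the 78 genes, which share their lengths and annotation between tissues, was 0.91 for lung with blood, 0.85 for lung with muscle and 0.77 for muscle with blood. Mrpl24 ranked 2 in lung, 1 in blood and 34 in muscle. Mrpl12 ranked 14, 12 and 2 in lung, blood and muscle, and Mrpl42 ranked 73, 77 and 36. Most neighbours in the order could not be separated: of 77 neighbouring pairs the libraries of only 3 in lung, 4 in muscle and 6 in blood did not overlap.

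After 1 h of heat, edgeR called 2 of 78 members in lung, both rising and both of the small subunit, and DESeq2 called 2 higher and 1 lower. For comparison, edgeR called 3.14% of the 19438 tested genes higher and 2.72% lower, and DESeq2 called 2161 tested genes. The members' median was -0.04 (all genes -0.01), with 30 of 78 differences above 0, and the median SE was 0.14. Mrps6 measured 7.33, 9.28 and 5.97 CPM in control lung, 18.7, 11.5 and 25.8 CPM in heated lung and 5.41, 7.05 and 7.32 CPM after recovery. All heated libraries lay above all others, and library 2 was the lowest of the 3. Heated lung lay above control without overlap in 12.7% of all tested genes. The rise was 1.31 (SE 0.27, edgeR adjusted p = 0.0235) and the later fall from heat to recovery -1.50 (SE 0.27, edgeR adjusted p = 0.00938).

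Slc5a3, the gene that shares the first exon stretch with Mrps6, moved in the same libraries; it was chosen after its values were seen. It measured 59.0, 64.3 and 55.7 CPM in control lung, 240, 132 and 352 CPM in heated lung and 42.6, 56.7 and 47.9 CPM after recovery. As for Mrps6, heated library 3 was the highest and library 2 the lowest. Its rise was 2.01 (edgeR adjusted p = 0.0202) and its fall from heat to recovery -2.29 (edgeR adjusted p = 0.00832). Reads of the shared bases cannot be assigned from these counts, so the part of Slc5a3 or Gm49711 transcripts in the Mrps6 values was not tested. The Mrps6 rise was no longer called without control library 1 (edgeR adjusted p = 0.0927), control 3 (0.106) or heat 1 (0.0676).

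**Figure D2:**
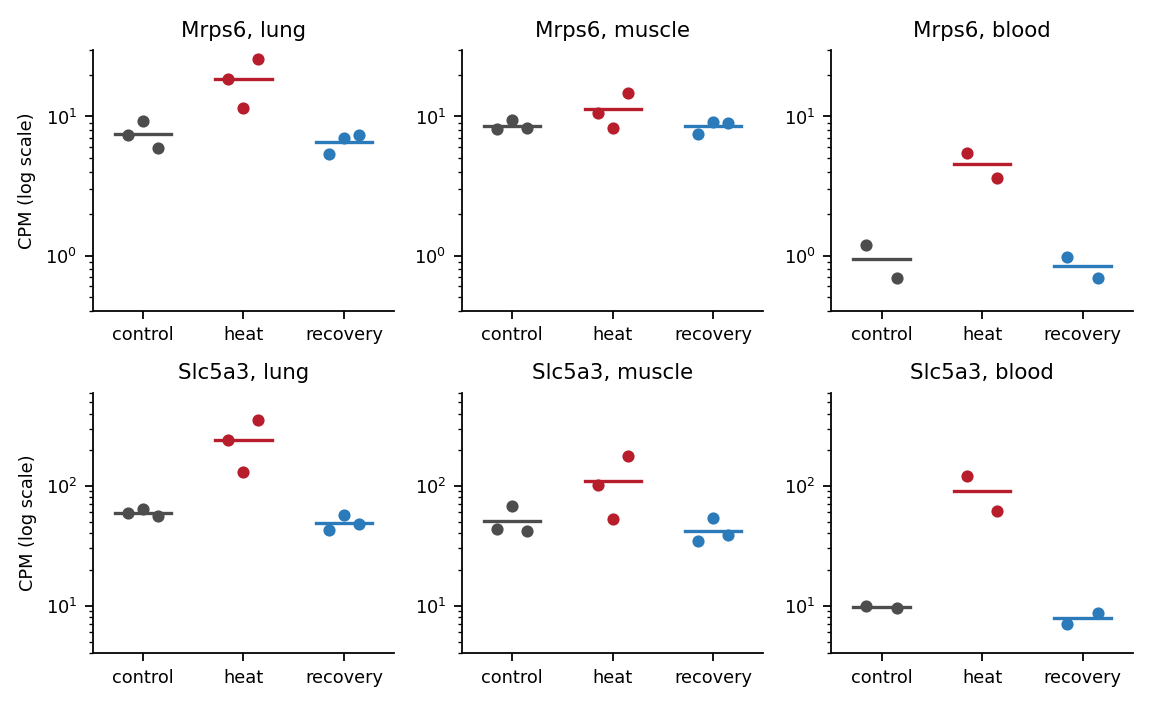
CPM of Mrps6 (top) and Slc5a3 (bottom) in each library of lung, muscle and blood, on log axes, with 1 point per library in order of its number and a line at the group mean. In lung and blood every heated library lies above all control and recovery libraries for both genes, and in lung and muscle the third heated library is the highest and the second the lowest.

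Mrps7, whose bacterial counterpart organises the head of the small subunit, was the second called rise. It measured 16.6, 17.6 and 16.1 CPM in control lung, 24.5, 20.04 and 23.8 CPM after heat and 16.8, 16.2 and 17.3 CPM after recovery. The heated libraries stood above the other 6, which overlapped each other. The rise was 0.44 (SE 0.10, edgeR adjusted p = 0.0323) and the fall to recovery -0.44 (edgeR adjusted p = 0.0221). Mrps7 shares 127 exon bases with Gga3 and 119 with Mif4gd on the opposite strand. Neither of these was called under heat in lung (Gga3 0.11, edgeR adjusted p = 0.562, and Mif4gd 0.10, edgeR adjusted p = 0.699). Without heat library 2 there were 4 called members, beside 2175 of 19886 tested genes. The number of called members was 0 without control 1, control 3 or heat 1, and 1 without control 2 or any 1 of the recovery libraries. Of all tested genes the fits without control 1, control 3 and heat 1 called 203, 133 and 319, against 1138 in the main fit.

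EdgeR called no member lower in heated lung. Mrpl15 measured 17.5, 18.7 and 19.2 CPM in control and 14.7, 15.8 and 12.4 CPM after heat (-0.37, edgeR adjusted p = 0.0737). It was called lower by DESeq2 (adjusted p = 0.0486) and by edgeR without heat library 2 (adjusted p = 0.0412). Mrps2, near the exit of the messenger channel, measured 10.6, 12.6 and 11.6 CPM and 9.14, 9.09 and 8.72 CPM (-0.37, edgeR adjusted p = 0.0931). Mrpl10 differed by -0.30 (edgeR adjusted p = 0.114). Among further rises, Mrps25 (0.27, near copy), Mrpl38 (0.41) and Mrpl24 (0.16) were not called. The remaining panel members lay between -0.28 (Mrpl58, Mrps18b and Mrps18c) and 0.13 (Mrpl12) and were not called; Mrps12 differed by 0.12, Mrpl41 by 0.01, Mrps30 by -0.07, Mrps18a by -0.10, Mrps36 by -0.13 and Mrpl3 by -0.16.

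Between heat and recovery, edgeR called 3 lung members, of which 1 rose and 2 fell, where 5.46% and 5.84% of tested genes did. The falls were those of Mrps6 and Mrps7. The rise was that of Mrpl58, the ribosome-rescue protein, with 15.6, 14.5 and 13.9 CPM after heat and 18.6, 21.8 and 18.8 CPM after recovery (0.43, SE 0.10, edgeR adjusted p = 0.0243). Its control values of 17.3, 18.0 and 18.4 CPM lay between, above every heated library. Mrps5 (0.42, edgeR adjusted p = 0.0506, near copy) and Mrps2 (0.35, edgeR adjusted p = 0.0851) were not called by edgeR, and DESeq2 added Mrps5 (adjusted p = 0.0380). No member was called without recovery library 1, and 1 was called without recovery 2 or 3. Of all tested genes the fits without recovery 1, 2 and 3 called 628, 736 and 993, against 2197 in the main fit. The remaining panel members lay between -0.21 (Mrpl12) and 0.29 (Mrps18c) and were not called. With library totals as the only scaling 6 were called.

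Recovered lung gave no called member against control lung. By edgeR 0 of 78 were called, 0 had an unadjusted p under 0.05, DESeq2 called 0, and 0.0309% of tested genes were called in either direction. The members' median was 0.00, with 39 of 78 above 0. The smallest p belonged to Mrps31 (0.29, edgeR adjusted p = 0.758) and Mrpl1 (-0.23, edgeR adjusted p = 0.765). Summed over the 78 genes, lung libraries held 951.2, 996.7 and 973.9 CPM in control, 959.4, 949.7 and 990.2 CPM after heat and 928.8, 987.1 and 994.7 CPM after recovery, so the groups overlapped. B cell markers, all 8 detected in every lung library, summed to 291.0 to 308.7 CPM in control lung, 159.5 to 164.2 after heat and 153.7 to 342.3 after recovery. T and NK cell markers, all 9 detected, summed to 45.7 to 51.2 CPM in control, 26.5 to 33.3 after heat and 29.9 to 38.6 after recovery, below every control library. For both lists, their part in the results for single genes was not tested.

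**Figure D3:**
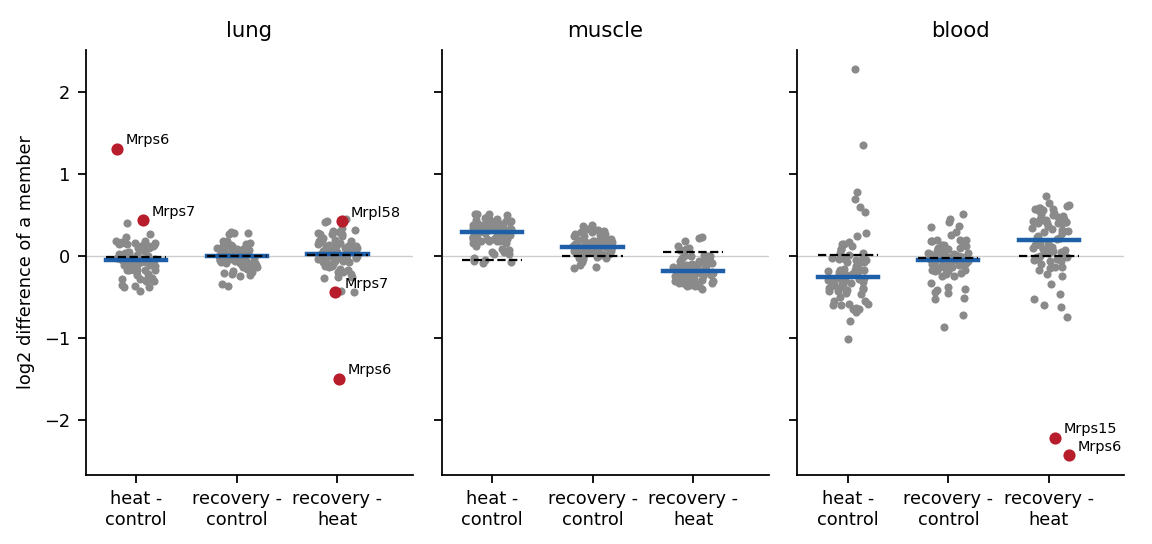
Log2 difference of each of the 78 genes for 3 comparisons in lung, muscle and blood. Grey points are members not called, red points with names are members called by edgeR, the blue line is the members' median and the dashed line the median of all tested genes. In muscle after heat the cloud sits above 0 (median 0.30) without a called member, while in lung and blood single genes such as Mrps6 stand far from the rest.

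In blood the same small-subunit gene moved furthest, with 2 libraries per group. Mrps6 measured 1.196 and 0.684 CPM in control blood, 5.48 and 3.63 CPM after heat and 0.98 and 0.69 CPM after recovery, and the heated libraries stood above the other 4. Both heated libraries lay above both controls in 20.5% of all tested genes. Both recovery libraries lay below both heated ones in 26.4%. The rise of 2.28 over control was not called (SE 0.39, edgeR adjusted p = 0.109), and the fall to recovery of -2.43 was (SE 0.40, edgeR adjusted p = 0.0390). Slc5a3 measured 9.96 and 9.63 CPM in control, 120 and 62.0 CPM after heat and 7.07 and 8.63 CPM after recovery, with the same order of the heated libraries. Its differences were 3.21 (edgeR adjusted p = 0.0800) and -3.54 (edgeR adjusted p = 0.0270).

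Mrps15 was the second called fall from heat to recovery in blood. It measured 5.23 and 4.89 CPM in control, 17.6 and 8.27 CPM after heat and 2.72 and 2.87 CPM after recovery. Its 3 groups did not overlap, with heat highest and recovery lowest. With 2 libraries per group this is common. Of all tested genes, heat lay above control without overlap in 20.5%, recovery below heat in 26.4% and recovery below control in 26.8%. The difference of recovery from heat was -2.21 (SE 0.37, edgeR adjusted p = 0.0415), that of heat from control 1.35 (SE 0.35, edgeR adjusted p = 0.182) and that of recovery from control -0.86 (edgeR adjusted p = 0.544). In lung the same gene stayed within 6.88 to 10.6 CPM over all 9 libraries and in muscle within 6.377 to 8.498 CPM. In that annotation Mrps15 shares no exon bases with another gene.

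Over all members, edgeR called 0 higher and 2 lower from heat to recovery in blood, where 1.29% and 2.7% of 15869 tested genes did. Neither fall was called without control 1, control 3, recovery 1 or recovery 2, each of which left 1 library in its group. A call lost in such a fit cannot be told apart from the effect of having fewer libraries. Without heat 2, which left 1 heated library, Mrps6 differed by -2.687 and Mrps15 by -2.655. Without heat 1 they differed by -2.092 and -1.562. DESeq2 called the same 2 falls and a rise of Mrpl3 (0.50, adjusted p = 0.0447), among 1679 called genes in all. Others with small p were not called by edgeR: Mrps7 at -0.74 (edgeR adjusted p = 0.119), Mrpl3 at 0.51 (0.0729), Mrpl10 at 0.57 (0.0918) and Mrps35 at 0.73 (0.0948). In the panel, Mrps36 differed by 0.58, Mrps2 by 0.49, Mrps18b by 0.42, Mrpl58 and Mrps18c by 0.41, Mrpl12 by 0.14, Mrps30 by -0.04, Mrps18a by -0.13, Mrps12 by -0.34 and Mrpl41 by -0.61, all not called.

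Heated against control blood gave 0 called members by edgeR, with 5 above and 9 below control at an unadjusted p under 0.05, and DESeq2 called 2. The share of all genes at that unadjusted p is not given here. Of all 15869 tested genes edgeR called 0% and DESeq2 called 610. The members' median was -0.25 (all genes 0.02), 17 of 78 differences were above 0 and they ranged from -1.01 to 2.28. That median was -0.08, with 31 of 78 above 0, without heat library 1, -0.37 without heat 2 and -0.15 without control 3. Besides Mrps6 and Mrps15, Mrps7 measured 4.91 and 3.87 CPM in control and 8.77 and 6.35 CPM after heat, above both controls (0.79, edgeR adjusted p = 0.202). Of all tested genes 20.5% lay above both controls in this way. Mrps2 lay at the other end, with 3.54 and 3.93 CPM in control and 1.36 and 2.35 CPM after heat (-1.01, edgeR adjusted p = 0.249). Mrpl41 differed by 0.70, Mrpl3 by -0.54, Mrpl10 by -0.65, Mrpl57 by -0.63, Mrpl58 by -0.58 and Mrps18b by -0.29, and the other panel members by -0.21 to 0.02. A fit without either heated library left 1 in that group, with its spread assumed from the other groups.

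The blood libraries differed in summed markers. Sums in this paragraph run from the lowest to the highest library of a group, which need not be library order. They also carry the TMM factors, which were 0.76 in heated library 1 and 1.40 in heated library 2. Differences in CPM between these libraries thus include the scaling. Erythroid markers summed to 398900 and 570900 CPM in control, 368800 and 903000 after heat and 768400 and 914100 after recovery. Neutrophil markers, all 10 detected, summed to 417.7 and 461.3, to 724.9 and 886.6, and to 219.5 and 317.6 CPM, and B cell markers to 892.9 and 1072, to 666.8 and 764.5, and to 1098 and 1158 CPM. Matrix cell markers ran from 51.72 to 3550 CPM within the heated pair. The summed level of the 78 genes changed less, at 281.1 and 294.9, 248.9 and 279.8, and 275.9 and 286.4 CPM. Neutrophil markers were thus highest and B cell markers lowest after heat, as Mrps6 was highest, and the part of cell makeup in the blood results was not tested.

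Recovered against control blood also gave 0 called members by edgeR, 1 at an unadjusted p under 0.05, 0 by DESeq2 and 0% of all tested genes. The members' median was -0.04 (all genes -0.02). The smallest p belonged to Mrps15 and to Mrpl32 (0.46, edgeR adjusted p = 0.544). Panel differences ran from -0.52 (Mrps2) to 0.41 (Mrps36).

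In muscle, most members lay above control after heat under TMM scaling, without a called gene. The members' median was 0.30 on the log2 scale (all genes -0.05), 73 of 78 differences were above 0, and they ranged from -0.08 to 0.52. By edgeR 0 of 78 were called, where 0.428% of 17746 tested genes were called in either direction. At an unadjusted p under 0.05 28 members were above control and 0 below. The share of all genes at that p is not given here. DESeq2 called 8 members, and 2607 of all 17746 tested genes. In 35 of 78 members all 3 heated libraries exceeded all 3 controls, as in 16.1% of all tested genes. The smallest edgeR adjusted p was 0.0881, and the median SE of a member was 0.15.

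Mrpl32, a zinc-binding large-subunit protein that a membrane protease must cut before assembly, had the smallest p. It measured 6.41, 6.71 and 6.95 CPM in control muscle, 8.98, 9.66 and 9.23 CPM after heat and 7.81, 9.29 and 8.80 CPM after recovery. Heated and control libraries did not overlap (0.47, SE 0.12, edgeR adjusted p = 0.0881). Mrpl50 measured 24.5, 20.5 and 23.1 CPM, then 31.7, 33.5 and 32.1 CPM, then 20.8, 27.9 and 29.01 CPM (0.51, edgeR adjusted p = 0.0929). Mrpl12 measured 38.0, 35.6 and 39.2 CPM, then 49.5, 55.1 and 47.0 CPM, then 36.4, 50.1 and 44.6 CPM (0.43, edgeR adjusted p = 0.107). For both, heat exceeded control in every library, and recovery library 1 fell among the controls while libraries 2 and 3 lay above them.

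Mrps2 measured 10.6, 9.41 and 10.9 CPM in control muscle and 14.9, 14.6 and 12.1 CPM after heat (0.43, edgeR adjusted p = 0.108). Mrps36 measured 8.73, 7.15 and 9.30 CPM and 10.9, 11.9 and 11.4 CPM (0.44, edgeR adjusted p = 0.131). Mrps6, called in heated lung, measured 8.17, 9.44 and 8.21 CPM in control muscle, 10.6, 8.32 and 14.8 CPM after heat and 7.43, 9.14 and 9.01 CPM after recovery, and its groups overlapped (0.39, edgeR adjusted p = 0.227). Slc5a3 in the same libraries measured 43.9, 68.0 and 41.9 CPM, 101, 53.1 and 176 CPM, and 34.7, 53.5 and 38.6 CPM (heat minus control 1.10, edgeR adjusted p = 0.134). The rest of the panel differed by 0.30 (Mrps12), 0.29 (Mrps18a), 0.24 (Mrps18b), 0.23 (Mrpl3), 0.21 (Mrps30), 0.17 (Mrps18c), 0.13 (Mrpl58) and -0.06 (Mrpl41). The 3 lowest were Mrpl20 (-0.08), Mrps35 (-0.06) and Mrpl41 (-0.06), each with overlapping groups.

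Both subunits had similar medians in heated muscle. Large-subunit genes had a median of 0.29 with 48 of 51 above 0, and small-subunit genes a median of 0.30 with 24 of 26 above 0. Genes with a bacterial counterpart had a median of 0.26 and genes specific to mitochondria one of 0.34.

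The muscle libraries also differed in markers of cell types and in scaling. Muscle fibre markers, all 10 detected in every library, summed to 65050, 56570 and 93500 CPM in control, 114900, 109800 and 95610 after heat and 58960, 99260 and 105700 after recovery. Adipocyte markers, all 8 detected, summed to 1718, 2258 and 921.5 CPM, then 463.8, 612.8 and 857.9, then 1862, 710.9 and 1015. Matrix cell markers were likewise below control in every heated library, at 1166, 1460 and 1611 CPM against 3359, 3732 and 1716. The summed members measured 1267, 1196 and 1428 CPM in control, 1661, 1633 and 1526 after heat and 1213, 1516 and 1492 after recovery. Library by library, the fibre sum and the member sum took nearly the same order under TMM scaling. Control 2 was lowest, recovery 1 and control 1 came next and heat 1 was highest in both. Both sums carry the same factor in each library, so part of a shared order is built in. As a share of unscaled counts the members were highest in control 1 (0.154%), control 2 (0.149%) and recovery 1 (0.148%), with 0.137% in heat 1.

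Set against the fibre markers, the members did not stand higher after heat. They amounted to 1.95%, 2.11% and 1.53% of the fibre marker sum in control, 1.45%, 1.49% and 1.60% after heat and 2.06%, 1.53% and 1.41% after recovery. Set against nuclear respiratory chain subunits they amounted to 13.5%, 13.3% and 13.1% in control and 12.8%, 12.7% and 11.7% after heat, lower with no overlap. Set against matrix enzymes and membrane channels they amounted to 40.2%, 37.3% and 37.4% in control. After heat these were 35.2%, 36.2% and 33.2%, also lower with no overlap. Set against cytosolic ribosomal proteins they amounted to 20.6%, 22% and 22.2% in control and 26.2%, 25.1% and 22.7% after heat, with no overlap. TMM factors were 1.22, 1.24 and 0.96 in control and 0.83, 0.89 and 0.91 after heat. With library totals as the only scaling the median of all genes was -0.43 and that of the members -0.07, with 22 of 78 above 0, so the sign of the shift in CPM depended on the scaling while the distance to all genes (0.34 with TMM, 0.36 with totals) did not. How far fibre content, scaling or heat each contributed was not tested.

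**Figure D4:**
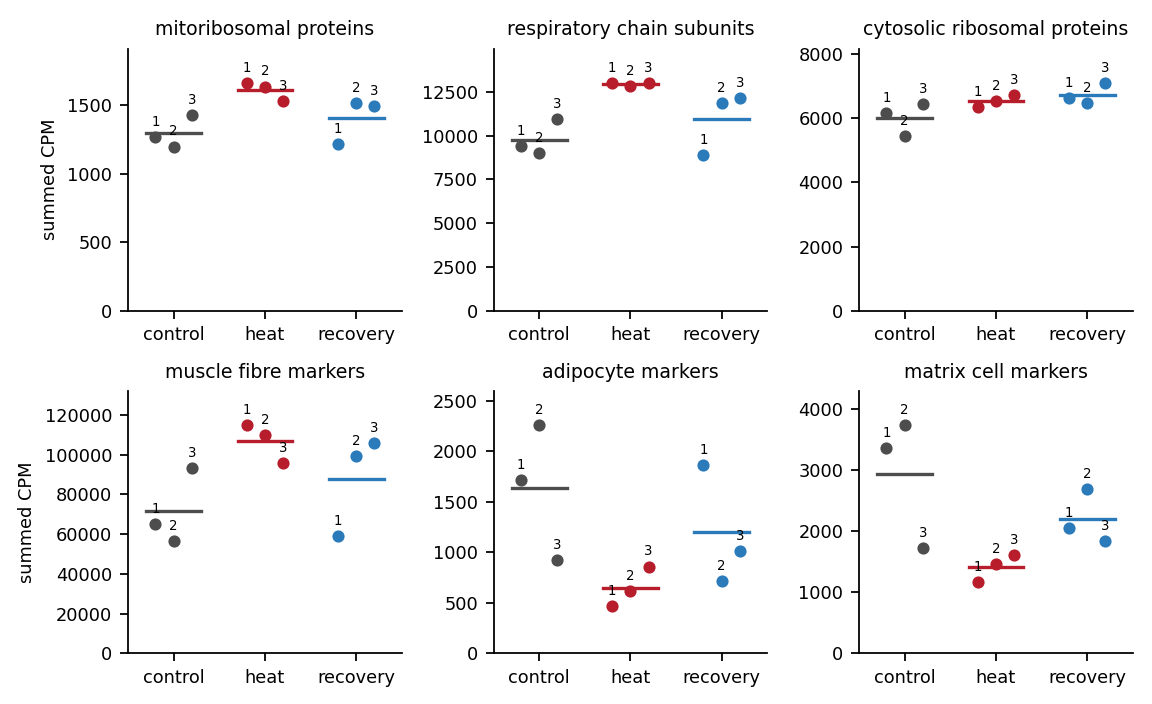
Summed CPM in each of the 9 muscle libraries for the 78 mitochondrial ribosomal proteins, respiratory chain subunits, cytosolic ribosomal proteins and markers of muscle fibres, adipocytes and matrix cells. Points are libraries with their numbers and lines are group means, with axes from 0. All sums use the TMM scaling of the muscle fit. Heated libraries are high for members, respiratory chain and fibre markers and low for adipocyte and matrix markers, and recovery library 1 lies with controls 1 and 2 for members, respiratory chain, fibre and adipocyte markers.

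Which members passed depended on single libraries. Without recovery library 1, which enters only through the shared estimate of spread and the scaling, 8 members were called in heated muscle, and they were named after the calls were seen: Mrpl12, Mrpl13, Mrpl30, Mrpl32, Mrpl50, Mrpl54, Mrps7 and Mrps23. The same fit called 2742 of all 18239 tested genes. DESeq2 called Mrpl12, Mrpl32, Mrpl38, Mrpl45, Mrpl50, Mrpl54, Mrps2 and Mrps27, and both sets shared 4. Over all leave-one-out fits the members' median stayed between 0.26 and 0.39.

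By its medians, recovered muscle lay between control and heat. Against control, edgeR called 0 members (2 at an unadjusted p under 0.05, 0 by DESeq2, 0.0676% of tested genes), and the median was 0.12 (all genes 0.00) with 69 of 78 above 0. Against heat, edgeR again called 0 (5 lower and 0 higher at an unadjusted p under 0.05, 0 by DESeq2, 0.468% of tested genes), and the median was -0.18 (all genes 0.05) with 11 of 78 above 0. The smallest p against control belonged to Mrpl32 (0.37, edgeR adjusted p = 0.793) and Mrpl57 (0.39, edgeR adjusted p = 0.941). Against heat they belonged to Mrps27, a small-subunit protein that also binds mitochondrial RNA (-0.37, edgeR adjusted p = 0.176), Mrpl3 (-0.36, 0.235) and Mrpl50 (-0.32, 0.246). Panel members ran from -0.14 (Mrpl58) to 0.36 (Mrps36) against control and from -0.40 (Mrps6) to 0.00 (Mrpl41) against heat. The median against control was 0.21 without recovery library 1, 0.04 without recovery 2, 0.07 without recovery 3, 0.06 without control 2 and 0.20 without control 3, and that against heat was -0.07 without recovery 1 and -0.27 without recovery 2. With library totals both medians changed sign, to -0.04 and 0.04, as all genes moved to -0.15 and 0.27.

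The difference between tissues in response was tested directly, as an interaction, in fits that share the lung libraries. For heat, muscle minus lung, edgeR called 0 members and 0.0328% of tested genes, while 21 members were above 0 and 1 below at an unadjusted p under 0.05, and DESeq2 called 2. Neither the share of all genes at that unadjusted p nor the number DESeq2 called of all genes is given here. The members' median was 0.36 (all genes -0.10) with 73 of 78 above 0. Mrps2 differed by 0.80, falling short of the call in lung and muscle with opposite signs (edgeR adjusted p = 0.110). Mrpl43 (0.63), Mrpl15 (0.59) and Mrps18b (0.52) were also above 0. Mrps6 was furthest below, at -0.92 (SE 0.36, edgeR adjusted p = 0.199). With library totals the median became 0.07 while all genes moved to -0.40. There were 3 called members without muscle recovery library 1, 2 without muscle control 3 and 1 without muscle heat 3. The numbers these fits called of all genes are not given here.

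The other interactions were smaller relative to their errors. For heat, blood minus lung, edgeR called 0 members and 0.0615% of tested genes (3 above and 6 below at an unadjusted p under 0.05, DESeq2 0), with a median of -0.20 (all genes 0.00). Mrps15 differed by 1.33 (edgeR adjusted p = 0.266), or by 1.77 without blood heat library 2, which left 1 heated blood library. Mrpl14 differed by 0.65, Mrpl57 by -0.67 and Mrps6 by 0.95 (SE 0.49, edgeR adjusted p = 0.590). The rise of Mrps6 in muscle or blood was thus not called different from that in lung; muscle against blood was not tested. For recovery, muscle minus lung, edgeR called 0 members and 0.0469% of tested genes (2 above at an unadjusted p under 0.05, DESeq2 0), with Mrpl47 at 0.62 (edgeR adjusted p = 0.885). For recovery, blood minus lung, edgeR called 0 members and 0.0284% of tested genes (0 at an unadjusted p under 0.05, DESeq2 0), with Mrpl36 at -0.79 (edgeR adjusted p = 0.439) and Mrps15 at -0.81 (edgeR adjusted p = 0.456).

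Genes that work with the mitochondrial ribosome were also mostly called higher in muscle at baseline under TMM scaling. Of all 21186 tested genes, 29.8% were called higher than in lung and 30.4% lower. The lists here and below were not refitted with library totals, a scaling that lowered the muscle minus lung medians of the members and of all genes. Relative to lung, 5 of 5 mitoribosome proteins with other names were called higher (median 1.56; Chchd1 2.52, Gadd45gip1 1.85, Ptcd3 1.56, Aurkaip1 1.24). Of 30 assembly factors, which modify and fold the ribosomal RNA and join the subunits, 22 were higher and 0 lower (median 1.00; C1qbp 2.22, Rmnd1 1.62). Of 16 translation factors 14 were higher and 0 lower (median 1.56), including Taco1, an activator of cytochrome oxidase translation (3.22), the elongation factor Tufm (2.47) and the mRNA-binding protein Lrpprc (2.01). Of 17 mitochondrial aminoacyl-tRNA synthetases, which charge its tRNAs, 12 were higher and 0 lower (median 0.81; Sars2 1.96, Iars2 1.05). Of 13 genes for transcription and upkeep of mitochondrial DNA 8 were higher and 1 lower (median 1.00; Tfb2m 1.98, Tfam 1.53).

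Regulators of mitochondrial biogenesis split: 5 of 8 were higher in muscle and 1 lower (median 0.77). The coactivators Ppargc1b (3.46) and Ppargc1a (3.25) and the nuclear receptor Esrra (2.58) rose, and Nrf1, a transcription factor for nuclear genes of mitochondria, fell (-0.54). The mitochondrial ribosomal RNAs mt-Rnr1 (1.03) and mt-Rnr2 (2.21) were called higher, but their counts depend on how ribosomal RNA was removed, and the sources used here do not say. Respiratory chain subunits (78 of 81 higher, 1 lower, median 3.04) and matrix enzymes and membrane channels (12 of 12 higher, median 3.25) lay further from lung than the ribosomal proteins, and cytosolic ribosomal proteins less far (68 of 81 higher, 3 lower, median 0.59). No test of the difference between lists was made.

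Blood showed another order, also under TMM scaling. The lists were not refitted with library totals, a scaling that lowered the blood minus lung medians of the members and of all genes. Relative to lung, cytosolic ribosomal proteins were higher in 77 of 81 and lower in 3 (median 1.35), while respiratory chain subunits split 18 to 12 (median -0.03) and matrix enzymes 2 to 2 (median -0.04). Of 30 assembly factors, 16 translation factors, 17 synthetases, 8 biogenesis regulators and 13 upkeep genes, assembly factors split 8 higher to 3 lower, translation factors 7 to 1, synthetases 10 to 1, biogenesis regulators 6 to 1, and upkeep genes 7 to 0. These stand beside 28.8% higher and 35.2% lower of all tested genes, and the 8 of 30 assembly factors called higher lie near that share. The other mitoribosome proteins were higher in 3 of 5 (median 0.46). Muscle against blood had 3 cytosolic ribosomal proteins higher and 68 lower (median -0.83), beside 77 respiratory chain subunits higher and 1 lower (median 3.05), and 12 of 12 matrix enzymes higher (median 3.22). There 7 of 17 synthetases were higher and 0 lower, where 39.7% of all tested genes were higher and 30.1% lower.

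**Figure D5:**
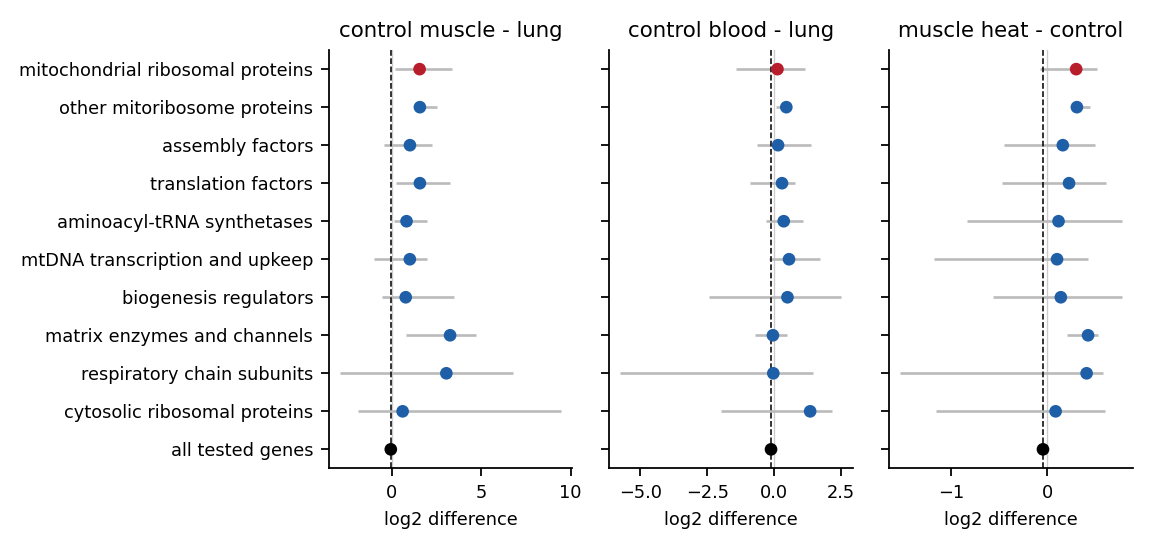
Median log2 difference (points) and range (bars) of each gene list for control muscle minus lung, control blood minus lung and heated minus control muscle; the dashed line is the median of all tested genes. All differences use TMM scaling, and the lists were not refitted with library totals. Mitochondrial ribosomal proteins (red, median 1.54 in the first panel) lie below respiratory chain subunits (3.04) and above cytosolic ribosomal proteins (0.59) in muscle, whereas in blood the cytosolic ribosomal proteins lie highest (1.35).

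In heated muscle none of these lists had a called gene by edgeR. Medians were 0.42 for matrix enzymes (12 of 12 above 0), 0.41 for respiratory chain subunits (77 of 80), 0.31 for other mitoribosome proteins (5 of 5), 0.22 for translation factors (13 of 16), 0.16 for assembly factors, 0.14 for biogenesis regulators, 0.12 for synthetases, 0.10 for upkeep genes and 0.09 for cytosolic ribosomal proteins (59 of 80). Ppargc1a differed by 0.77 (edgeR adjusted p = 0.0828).

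Heated lung called few genes of the lists. The glutamyl-tRNA synthetase Ears2 rose by 1.03 (edgeR adjusted p = 0.0330), the pseudouridine synthase Trub2 fell (-0.42, edgeR adjusted p = 0.0353) and the release factor Mtrf1 fell (-0.75, edgeR adjusted p = 0.0385). From heat to recovery these went the other way, with Ears2 at -1.50, Trub2 at 0.49 and Mtrf1 at 0.68, comparisons that share the heated libraries. Also called there were the synthetases Tars2 (-0.70), Mars2 (-0.64) and Iars2 (0.23) and the assembly factor Ngrn (0.40). In blood, Fh1, fumarase of the citric acid cycle, rose from heat to recovery (0.95, edgeR adjusted p = 0.0340).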

How the data were processed

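RNA was measured by bulk sequencing in 24 mouse libraries. The labels' protocols name TRIzol extraction of total RNA and a directional library kit. The authors deposited read counts per gene without normalization. STAR 2.7, featureCounts and the build GRCm39 are named in the submitters' processing notes, which give no strand, annotation or multi-mapping setting. Counts were fitted with edgeR 4.0.16 (R 4.3.3, TMM scaling, filterByExpr with a minimum count of 10 and a minimum total of 15, robust quasi-likelihood test) in 6 fits: each tissue, the 8 control libraries, and lung with muscle or with blood. Control comparisons and response differences made 16 comparisons in all, with p-values adjusted over all tested genes and a threshold of 0.05. CPM values use the scaling of the tissue's fit, and of the control fit where tissues are compared. The fitting code was tested on simulated data. Counts at an unadjusted p under 0.05 are given for the members only, without the share of all tested genes. The members and lists were chosen with earlier results of these data known. Named in each comparison were the 6 largest called changes in each direction, or, with fewer than 3 called, the smallest p among those not called, a panel of 12 members, and the highest and lowest levels. Alternatives were other size factors, DESeq2 1.42.0, no filter, library totals (added after seeing the scaling factors), each library left out, other conditions for the tissue comparisons, and a block on library number. Bat libraries, protein-coding genes of mitochondrial DNA, promoters and protein sequences were not analysed here.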

Additional observations from a re-analysis of the deposited data

How the results depend on the processing

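Of 4293 values of named genes under alternatives, 4146 kept their side of the threshold, among them 212 uncalled values that changed sign; 82 lost and 46 gained a call, and 19 changed sign where the main or the alternative value was called. The cause was not tested except where stated. The count of called members changed as follows. With library totals as the only scaling it was 1 for lung heat versus control, 6 for lung recovery versus heat, 42 for control muscle versus lung and 77 for control blood versus lung. With DESeq2 it was 8 for muscle heat, 2 for blood heat and 2 for the heat response of muscle minus lung, and without a filter it was 1 for blood heat. Of all tested genes DESeq2 called 2607 for muscle heat and 610 for blood heat, and the fit without a filter called 400 for blood heat. In the counts that follow, a fit without a blood library left 1 in its group. Leaving out 1 library gave 0 to 4 for lung heat, 0 to 4 for lung recovery versus heat, 0 to 8 for muscle heat, 0 to 4 for blood heat, 0 to 4 for blood recovery versus heat, 8 to 28 for control blood versus lung, 0 to 3 for the heat response of muscle minus lung and 0 to 1 for that of blood minus lung.

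The labels do not say that a number marks 1 animal, and in no fit did all same-numbered pairs correlate above 0.1, so libraries were not treated as paired. The correlations ran from -0.16 to 0.13 in lung, -0.41 to 0.55 in muscle, -0.06 to 0.61 in blood, -0.01 to 0.14 in the control fit, 0.01 to 0.26 in lung with muscle (4 of 9 pairs above 0.1) and -0.02 to 0.14 in lung with blood. In lung with muscle all 9 same-numbered pairs were thus above 0, while differently numbered pairs ran from -0.27 to 0.08. Whether these tissues share animals was not tested, and the main interaction fits treat their libraries as independent. With the replicate block 0 members were called for lung heat (Mrps6 adjusted p = 0.0545) and 0 for blood recovery versus heat (Mrps6 0.105, Mrps15 0.125). Of all tested genes the block fit called 685 of 19438 for lung heat and 0 of 15869 for blood recovery versus heat. The block gave 2 calls for lung recovery versus heat and 15 for control blood versus lung, and moved no other count beyond 1.5 times. Heat or recovery against control in blood share only 1 number, so block results for these 2 comparisons were not kept. The blood block fit left few degrees of freedom for the spread.

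Library totals reversed these log2 values, in control muscle versus lung Mrpl58 to -0.22 and Mrps2 to -0.019, and in control blood versus lung Mrpl19 to -0.95, Mrpl22 to -0.95, Mrpl30 to -0.79, Mrpl32 to -0.85, Mrpl33 to -1.01, Mrps15 to -0.44, Mrpl12 to -1.50, Mrpl3 to -1.225, Mrpl41 to -1.38, Mrpl58 to -1.58, Mrps18b to -1.17, Mrps18c to -1.434, Mrps2 to -1.36, Mrps30 to -1.418 and Mrps36 to -1.57. In heated libraries Mrps6 in blood versus lung was 0.014, and in recovery libraries Mrps15 in muscle versus blood was 0.85. The least counted member had 19 reads in blood, 38 in lung and 91 in muscle; the median SE of a member was 0.23 in blood, which had 2 libraries per group, and 0.14 in lung.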
